A study of Mus musculus with 4 samples.

Results

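The mucolipins and the two-pore channels are the cation channels of endosomes and lysosomes, and their transcripts were described in mouse trigeminal ganglia that carry the K823R allele of Trpv1. The family was taken as the gene rows named Mcoln1, Mcoln2, Mcoln3, Tpcn1 and Tpcn2, which are 5 of the 56035 gene rows. The family was selected on the TPM of Mcoln1, which had the widest consistent shift of any TRP gene between the genotypes, so the differences between the groups given for these genes are a description and carry no test. One group was TRPV1 K823R mice, called transgenic in one label and knock-in in another, in which a lysine codon of the heat and capsaicin channel TRPV1 is changed to arginine. The other group was their wild-type (WT) littermates. Both were male C57BL/6 mice of 8 weeks, with no other allele or treatment given. Each group had 2 libraries of poly(A) RNA from the trigeminal ganglion, the sensory ganglion of the face. The labels mention 2 pairs of ganglia without tying them to libraries, so spreads and p-values describe these samples and may be technical.

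TRPML1, TRPML2 and TRPML3, the products of Mcoln1, Mcoln2 and Mcoln3, are TRP channels that sit in endosome and lysosome membranes and pass calcium and other cations into the cytosol. They open in response to the endolysosomal lipid PI(3,5)P2. The two-pore channels TPC1 and TPC2, from Tpcn1 and Tpcn2, are distant relatives of voltage-gated channels and respond to the same lipid and to the calcium-mobilising messenger NAADP. Calcium leaving through TRPML1 activates calcineurin, which sends the transcription factor TFEB to the nucleus, where it drives lysosomal genes, Mcoln1 among them. Loss of TRPML1 in people causes mucolipidosis type IV, a lysosomal storage disease with neurodegeneration. All 5 genes carried the annotation "NAADP-sensitive calcium-release channel activity" in the deposited table.

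The 5 transcripts were at very unequal levels, and the order was the same in every library. Levels are in TPM, which divides reads by gene length and scales each library to one total. Mcoln1 was highest at 58.8 to 86.7 TPM over the 4 libraries, and Tpcn1 followed at 21.3 to 27.5 TPM. Tpcn2 stood at 1.62 to 2.15 TPM and Mcoln2 at 0.12 to 0.55 TPM, and Mcoln3 was listed at 0 in all 4 libraries. No neighbours in this order overlapped. Mcoln1 had 2.74 to 3.25 times the TPM of Tpcn1 in the same library, and Tpcn1 had 9.89 to 17.0 times that of Tpcn2. Of the summed TPM of the family, Mcoln1 made up 74.7% and 75.0% in K823R and 71.4% and 71.5% in WT. A minimum of 1 TPM on average over the libraries left 15390 genes, which are the genes tested below. Among them the mean of Mcoln1 was above those of 84.2% of genes, that of Tpcn1 above 61.5% and that of Tpcn2 above 9.30%. Mcoln2 and Mcoln3 fell under that minimum, so 3 of the 5 members were in the fit.

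**Figure D1:**
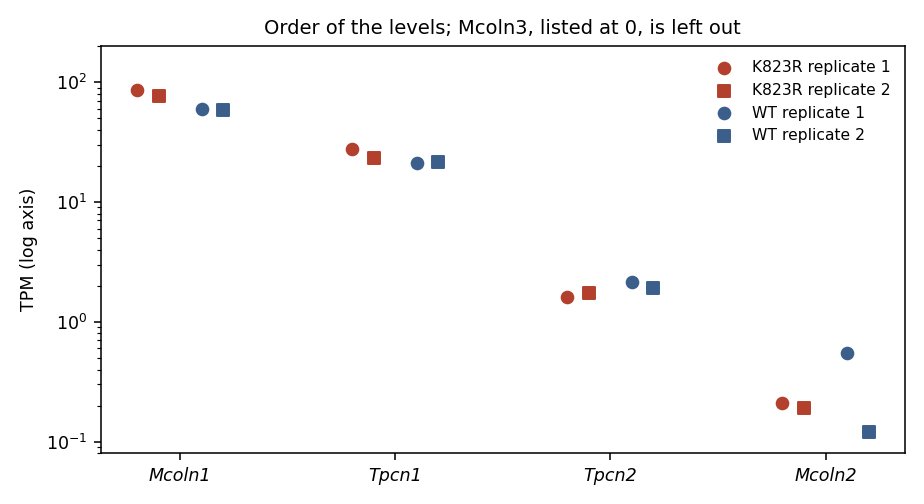
TPM of each channel gene on a log axis, 1 point per library, with K823R left of WT. Mcoln1 lies between 58.8 and 86.7 TPM, Tpcn1 between 21.3 and 27.5 TPM, Tpcn2 between 1.62 and 2.15 TPM and Mcoln2 between 0.12 and 0.55 TPM, with no overlap between genes.

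Mcoln1 (ENSMUSG00000004567), the main calcium release channel of lysosomes, stood at 86.7 and 76.1 TPM in K823R libraries 1 and 2, against 59.8 and 58.8 TPM in WT libraries 1 and 2. Both K823R libraries were above both WT libraries, and the WT pair lay much closer together than the K823R pair. The means were 81.4 ± 7.48 TPM in K823R and 59.3 ± 0.672 TPM in WT (SD, n = 2 each), a ratio of 1.37. Between single libraries of the groups the ratio ran from 1.27 to 1.47. Measured as log2(TPM + 1), a scale that compresses changes of scarce transcripts, the difference K823R minus WT was 0.45 with a standard error (SE) of 0.092, above 94.98% of all genes tested. Without K823R library 1 it was 0.35 and without K823R library 2 it was 0.54, while it was 0.46 without WT library 1 and 0.44 without WT library 2.

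**Figure D2:**
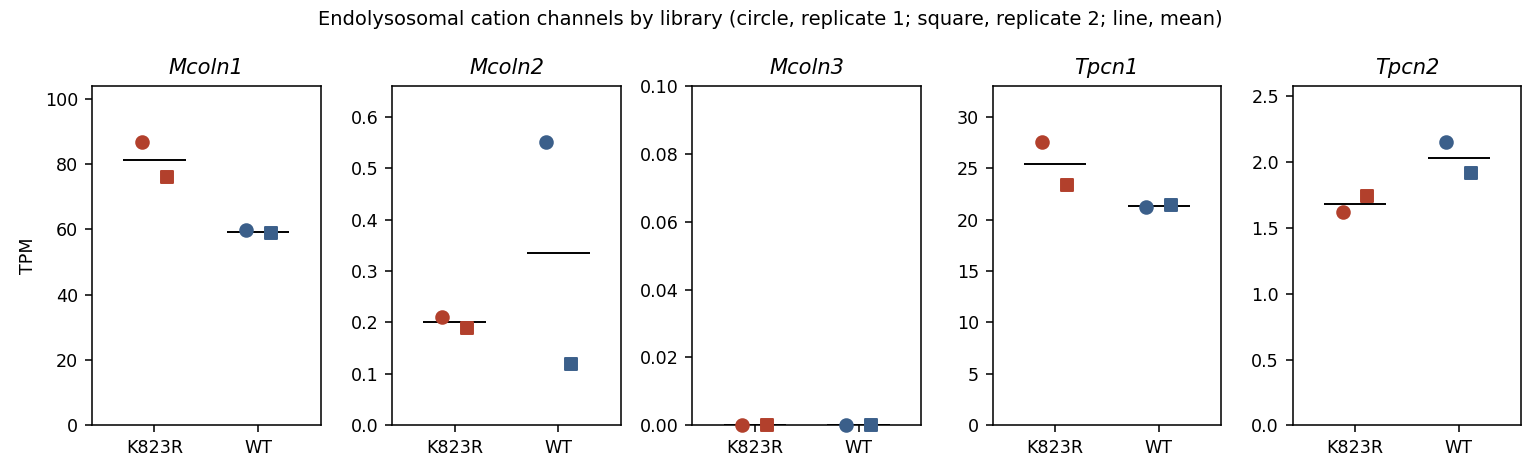
TPM of each of the 5 genes by library, each panel with its own axis from 0, K823R left of WT, circles for replicate 1, squares for replicate 2 and lines for group means. K823R lies above WT for Mcoln1 and Tpcn1 and below it for Tpcn2, the groups overlap for Mcoln2, and Mcoln3 is at 0 throughout.

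In GRCm38 Mcoln1 occupies positions 3500457 to 3515232 of chromosome 8 on the plus strand, with 14 exons in its principal transcript of 2065 bases, the length given in the deposited table. The stretch before its start is shown because Mcoln1 is a known TFEB target and TFEB, like other factors of its class, reads the E-box CACGTG. It runs over chr8:3500269-3500486 on the plus strand (RefSeq promoter window, GRCm38.p6), ending 30 bases into the first exon of the GENCODE gene, and capitals mark each CACGTG.
Mcoln1 upstream: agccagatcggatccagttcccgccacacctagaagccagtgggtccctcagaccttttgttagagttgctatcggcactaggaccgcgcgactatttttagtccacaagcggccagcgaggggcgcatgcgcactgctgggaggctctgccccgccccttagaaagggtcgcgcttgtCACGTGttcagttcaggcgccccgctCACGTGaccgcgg
CACGTG reads the same on both strands. The window of Mcoln1, from 250 bases before to 50 after the RefSeq start, held 2 copies, the first 71 and the second 45 bases before that start. They occupy positions 3500448 to 3500453 and 3500474 to 3500479 of the chromosome, so the second lies within the first exon of the GENCODE gene, which starts farther upstream. At least 1 copy occurred in 7.15% of 32817 RefSeq windows of the same length, and at least 2 copies in 0.594%. Among the windows of genes tested, 9.53% held at least 1. The longer CLEAR element of lysosomal genes, which contains CACGTG, was searched only as 1 exact string. That string was found in 0 of the members' windows and in 0.326% of all windows. With its flanking bases, the first CACGTG of Mcoln1 differed from the string at 2 bases and the second at 1. Only the flanking bases can differ here, and how many other windows come as near was not counted. Nothing is read from these differences. Looser forms of the element were not searched. Windows were matched for 4 of the 5 members, all but Tpcn1. That of Mcoln2 held 1 CACGTG, which with its flanking bases differed from the string at 4, and those of Mcoln3 and Tpcn2 held 0. A match is a description of these letters and says nothing of binding in the ganglion.

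Tpcn1 (ENSMUSG00000032741), the two-pore channel found mainly in endosomes, stood at 27.5 and 23.4 TPM in K823R and 21.3 and 21.5 TPM in WT. The K823R libraries were the higher ones again, with K823R library 1 the highest, as for Mcoln1. The means were 25.5 ± 2.89 TPM in K823R and 21.4 ± 0.141 TPM in WT (SD, n = 2 each), with a log2 difference of 0.24 (SE 0.11). Without K823R library 1 that difference was 0.13.

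Tpcn2 (ENSMUSG00000048677), which encodes the two-pore channel of late endosomes and lysosomes, had the opposite direction at a low level. It stood at 1.62 and 1.74 TPM in K823R and 2.15 and 1.92 TPM in WT, with means of 1.68 ± 0.0849 TPM in K823R and 2.04 ± 0.163 TPM in WT (SD, n = 2 each). The log2 difference was -0.18 (SE 0.20), smaller than its own standard error, and -0.26 with a pseudocount of 0.1 TPM. Each of the 3 members in the fit had groups that did not overlap, 2 with K823R above and 1 with K823R below, but that of Mcoln1 was fixed by the choice of the family, which leaves 2 members. Among all genes tested 34.0% had groups that did not overlap, 19.4% with K823R above and 14.6% below, and nothing is read from the members' count. The ratio of Mcoln1 to Tpcn2 was 53.5 and 43.7 in K823R against 27.8 and 30.6 in WT, and that of Mcoln1 to Tpcn1 was 3.15 and 3.25 in K823R against 2.81 and 2.74 in WT.

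Mcoln2 (ENSMUSG00000011008), whose product in mice is best known from macrophages and lymphocytes, stood at 0.21 and 0.19 TPM in K823R and 0.55 and 0.12 TPM in WT. The groups overlapped, and WT library 1 alone set the mean of WT. Markers of lymphocytes were scarce in the same libraries. Their 6 genes summed to 3.71 and 4.04 TPM in K823R and 3.96 and 4.14 TPM in WT, with Cd79a the only 1 above the filter and Cd3d and Ms4a1 at 0 in at least 1 library. Mcoln3 (ENSMUSG00000036853), known in mice from inner ear hair cells and from the deaf varitint-waddler strain, was listed at 0 in every library, so no fold is given.

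Mcoln2 and Mcoln3 are neighbours on chromosome 3 (plus strand), at 146149833 to 146195513 and 146117450 to 146141806, with 8026 bases between them. Both two-pore genes are on minus strands, Tpcn1 at 120534153 to 120588673 of chromosome 5 and Tpcn2 at 145186524 to 145284011 of chromosome 7. No other gene in GENCODE M21 overlaps any of the 3 mucolipin genes. Tpcn1 contains 2510016D11Rik, at no more than 0.82 TPM, and Tpcn2 contains 1810010D01Rik, at no more than 0.13 TPM, both on the strand of the channel gene. A BLAST search of the principal transcripts found 0 stretches of at least 100 bases at 95% identity in another gene, so no close copy with which they could share reads was found.

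Set beside the rest of the TRP family, Mcoln1 stood at the upper end in level and, as the choice required, in difference. Of 25 other TRP genes 14 passed the filter, and the 1 with the next widest consistent difference was Trpm2, a cation channel opened by ADP-ribose. Trpm2 was at 13.8 and 10.4 TPM in K823R and 9.47 and 7.84 TPM in WT, with a log2 difference of 0.43 (SE 0.18). Its difference was nearly as wide as that of Mcoln1. It was also the only other TRP gene in the fit whose groups did not overlap. Trpv1 itself was at 40.9 and 35.0 TPM in K823R and 39.2 and 30.6 TPM in WT, and these groups overlapped. The mean TPM of Mcoln1 was above that of Trpm8, the cold and menthol channel, which had means of 59.1 ± 8.46 TPM in K823R and 53.0 ± 0.276 TPM in WT (SD, n = 2 each). Over the 14 other TRP genes, 8 higher and 6 lower in K823R, the median log2 difference was 0.091. That median was -0.042 without K823R library 1 and 0.22 without K823R library 2.

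**Figure D3:**
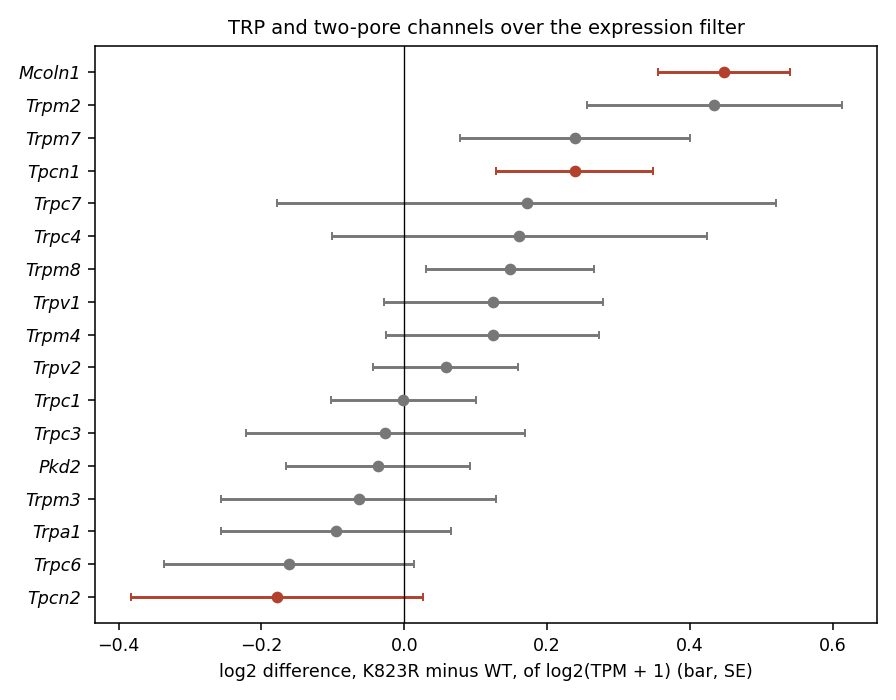
Log2 difference, K823R minus WT, of log2(TPM + 1) for the TRP and two-pore channel genes in the fit, with bars of 1 SE, the endolysosomal channels in red and the other genes in grey. Mcoln1 (0.45) and Trpm2 (0.43) lie at the upper end and Tpcn2 (-0.18) at the lower end, where the bar crosses 0.

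The genes whose profile over the 4 libraries was most like that of Mcoln1 were of mixed function. Likeness was the root mean square difference between profiles of log2(TPM + 1), each centred on its own mean, among 8578 genes with a standard symbol and at least 10 TPM. The nearest was Paf1, a subunit of the PAF1 transcription elongation complex, at 0.0116, against a median of 0.232 for all candidates. Paf1 was at 47.0 and 41.1 TPM in K823R and 32.6 and 32.3 TPM in WT. The next were the thrombin receptor F2r (0.0220), the DNA damage clamp gene Rad9a (0.0260), the zinc finger gene Zfp513 (0.0352) and the sodium pump regulator Fxyd5 (0.0366). For Tpcn1 the nearest were Plekho1 (0.00651), the elastic fibre gene Efemp2 (0.0129) and the solute carrier Slc37a3 (0.0152). For Tpcn2, among 13197 candidates, they were Net1 (0.00534), the SNARE gene Sec22b (0.00641) and the forkhead gene Foxj2 (0.00887). Of these 11 neighbours 0 belong to the lysosomal lists used below or to the annotated lysosome pathway. That pathway holds only 112 of the 15390 genes tested, so any 11 genes would seldom include 1 of them. Nothing is read from this count.

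Of 8 genes for enzymes, and their subunits, of PI(3,5)P2, the lipid that opens the channels, and of related phosphoinositides, 0 passed limma at an adjusted p below 0.05. Over all genes tested 0.00650% passed, which is 1 gene, Gm43110, and 4.76% had an unadjusted p under 0.05. In the lipid list 7 genes were higher and 1 lower, with a median log2 difference of 0.12 beside 0.026 over all genes tested, and 1 had an unadjusted p under 0.05. That gene was Pik3r4, the regulatory subunit of the kinase that makes the precursor lipid, at 25.6 and 21.9 TPM in K823R and 19.4 and 18.6 TPM in WT (limma adjusted p = 0.918). Ocrl does not act mainly on PI(3,5)P2 but is a phosphatase of the plasma membrane lipid PI(4,5)P2, which inhibits TRPML1. It had means of 26.0 ± 1.68 TPM in K823R and 22.4 ± 2.17 TPM in WT (SD, n = 2 each). Vac14, the scaffold of the PIKfyve kinase, had means of 18.7 ± 1.99 TPM in K823R and 17.0 ± 1.32 TPM in WT (SD, n = 2 each). The list's median was 0.20 without WT library 1, 0.048 without WT library 2, 0.059 without K823R library 1 and 0.19 without K823R library 2.

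Genes for NAADP and for proteins that bind the channels showed no common direction. Of 9 genes, 6 higher and 3 lower in K823R, the median log2 difference was 0.054, and by limma 0 passed and 1 had an unadjusted p under 0.05. That 1 was Tmem163, a zinc transporter that binds TRPML1, at 44.96 and 42.3 TPM in K823R and 53.4 and 53.0 TPM in WT (log2 difference -0.28, SE 0.078, limma adjusted p = 0.918). The K823R libraries of Tmem163 were both below the WT libraries, opposite to Mcoln1. The NAADP-binding proteins that act on two-pore channels are encoded by Jpt2 and Lsm12. Jpt2 was at 10.99 and 8.33 TPM in K823R and 7.80 and 7.88 TPM in WT, and Lsm12 at 23.1 and 21.2 TPM in K823R and 21.2 and 20.3 TPM in WT. Both K823R libraries of Jpt2 were above both WT libraries, while the groups overlapped for Lsm12. The median of the list was 0.0040 without WT library 2 and 0.028 without K823R library 1.

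Other channels and transporters of the lysosome membrane had a median difference close to that of all genes tested. Of 16 genes 11 were higher and 5 lower, with a median log2 difference of 0.041, and by limma 0 passed and 1 had an unadjusted p under 0.05. The nucleoside transporter Slc29a3 was at 31.4 and 33.7 TPM in K823R and 25.2 and 13.7 TPM in WT (limma adjusted p = 0.918). The cystine exporter Ctns was at 22.0 and 21.3 TPM in K823R and 18.6 and 18.2 TPM in WT, and the chloride-proton exchanger Clcn6 at 42.9 and 42.2 TPM in K823R and 37.7 and 38.2 TPM in WT. For these 3 genes, named for the smallest p-values, the groups did not overlap. Over the whole list both K823R libraries were above both WT libraries for 5 of 16 genes and below them for 1, beside 19.4% and 14.6% of all genes tested. The list's median was 0.10 without K823R library 2, 0.083 without WT library 1, 0.0061 without K823R library 1 and -0.0095 without WT library 2. Of 25 V-ATPase genes, 3 of them listed at 0 throughout, 20 were in the fit. They encode the proton pump that acidifies lysosomes, and 13 were higher and 7 lower. Their median was 0.016, by limma 0 passed, and 1 had an unadjusted p under 0.05. The pump subunit Atp6v0e was at 64.5 and 59.5 TPM in K823R and 78.1 and 72.4 TPM in WT (limma adjusted p = 0.918). Tcirg1 had means of 9.32 ± 0.0283 TPM in K823R and 7.68 ± 1.53 TPM in WT, and Atp6v1g1 had means of 261 ± 8.53 TPM in K823R and 281 ± 10.4 TPM in WT (SD, n = 2 each). The V-ATPase median was 0.086 without WT library 1 and -0.039 without WT library 2, and it was -0.00083 and -0.0070 with upper-quartile and median-of-ratios scaling.

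Genes of TFEB and of mTORC1, the kinase complex that holds TFEB in the cytosol from the lysosome surface, had no common direction. Of 24 genes in the fit, 10 higher and 14 lower in K823R, the median log2 difference was -0.021, and by limma 0 passed and 0 had an unadjusted p under 0.05. Lamtor5, of the Ragulator complex that anchors mTORC1, was at 141 and 135 TPM in K823R and 152 and 162 TPM in WT. Tsc2, a brake on mTORC1, was at 34.3 and 31.0 TPM in K823R and 26.6 and 29.6 TPM in WT. Rheb, the GTPase that Tsc2 restrains, was at 155 and 149 TPM in K823R and 161 and 165 TPM in WT, and all 3 had a limma adjusted p of 0.918. Tfeb itself, named for its role, was at 10.7 and 11.5 TPM in K823R and 10.5 and 10.1 TPM in WT. The median of this list was 0.0071 without WT library 1, 0.020 without K823R library 2 and -0.053 without K823R library 1.

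Lysosomal enzymes and membrane proteins, which include the classical TFEB targets, were higher in K823R in 29 of 33 genes and lower in 4. Their list also holds the autophagy genes Sqstm1 and Uvrag, which encode neither kind of protein. Both count among the 29 and in the summed level. The median log2 difference was 0.11 beside 0.026 over all genes tested, of which 57.4% were higher. By limma 0 passed and 1 had an unadjusted p under 0.05. For 14 of the 33 genes (42.4%) both K823R libraries were above both WT libraries, beside 19.4% of all genes tested. The 1 with the smallest p was Grn, which encodes the lysosomal protein progranulin, at 45.9 and 46.9 TPM in K823R and 38.6 and 38.5 TPM in WT (log2 difference 0.26, SE 0.074, limma adjusted p = 0.918). The protease Ctsf had means of 55.7 ± 4.21 TPM in K823R and 47.8 ± 2.98 TPM in WT (SD, n = 2 each). The median rested on WT library 2, the lowest library for this list, and was 0.21 without WT library 1 and 0.027 without WT library 2. Without K823R library 1 it was 0.076. The summed level of the list was 6421 and 6217 TPM in K823R and 6341 and 5663 TPM in WT, so the groups overlapped in that sum. Macrophages are rich in lysosomes, and their 12 markers summed to 93.1 and 125 TPM in K823R and 57.5 and 93.1 TPM in WT, with WT library 1 the lowest. Their part in the lysosomal values was not tested.

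Among 112 genes in the fit that the deposited table annotates to the lysosome pathway, Mcoln1 ranked 37 by mean TPM and 5 by log2 difference. The other 111 genes had a median log2 difference of 0.092, with 84 higher and 27 lower, and by limma 0 passed and 4 had an unadjusted p under 0.05.

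**Figure D4:**
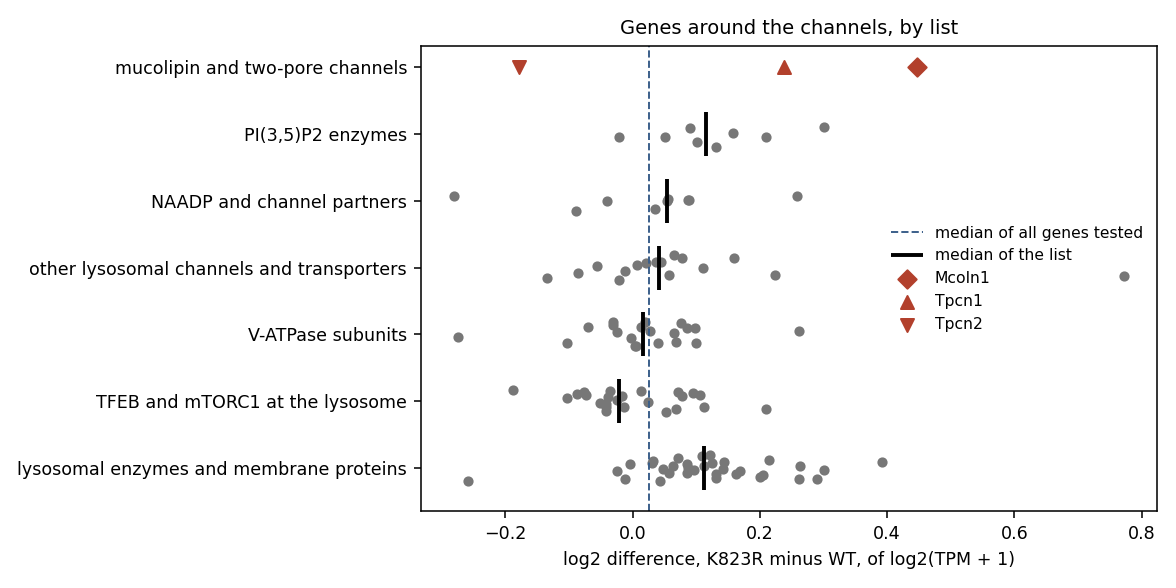
Log2 difference, K823R minus WT, of log2(TPM + 1) for each gene in the fit, by list, with black bars for list medians and a dashed line for the median of all genes tested (0.026). Mcoln1 (0.45) lies outside the points of every list other than Slc29a3 in the list of other channels and transporters, and the list medians run from -0.021 to 0.12.

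The libraries also differed in markers of cell types, and in bulk tissue fewer cells of a type and less RNA per cell cannot be told apart. All 12 sensory neuron markers were in the fit, summing to 12679 and 12155 TPM in K823R and 12937 and 11108 TPM in WT. Uchl1, the most abundant of them, was at 4495 and 4309 TPM in K823R and 4698 and 4146 TPM in WT. The 10 markers of oligodendrocytes and astrocytes, glia of the central nerve root, summed to 326 and 389 TPM in K823R and 68.6 and 290 TPM in WT. The most abundant, the myelin gene Mobp, was at 136 and 178 TPM in K823R and 2.31 and 113 TPM in WT. Ugt8a was at 69.4 and 81.75 TPM in K823R and 55.55 and 77.4 TPM in WT. It therefore made up most of the sum of WT library 1, and that sum understates how low the other markers were there. In WT library 1 Mog, Opalin and Olig2 were at 0. The 8 of them in the fit were all higher in K823R, and their median log2 difference was 1.58. Mcoln1 was at 59.8 TPM in WT library 1 and 58.8 TPM in WT library 2, and its difference was 0.46 without WT library 1. The part of central glia in that difference was not tested.

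Of the macrophage markers 9 of 11 in the fit were higher in K823R (median log2 difference 0.51), and of the fibroblast and meningeal markers 9 of 9 (0.52). The complement gene C1qa, the most abundant macrophage marker, was at 29.9 and 37.4 TPM in K823R and 20.8 and 26.7 TPM in WT. Ptgds, the prostaglandin D synthase of the meninges, was at 2374 and 472 TPM in K823R and 109 and 577 TPM in WT. Fibroblast and meningeal markers summed to 918 to 2928 TPM in K823R and 347 to 1089 TPM in WT. Anterior pituitary markers summed to 20.0 to 23.8 TPM in K823R and 2.54 to 4.80 TPM in WT, the widest gap between the groups of any marker list. Prl and Cga were at 0 in WT library 1 and Lhb in every library, and 3 of 3 genes in the fit were higher (2.03). Growth hormone, Gh, was at 17.1 and 12.03 TPM in K823R and 0.25 and 1.15 TPM in WT (limma adjusted p = 0.431). Of the markers of myelinating Schwann cells 7 of 8 were higher (0.22), with sums of 14386 to 17147 TPM in K823R and 11685 to 14506 TPM in WT. Satellite glia markers were higher in 3 of 6 genes (0.030), with sums of 11119 to 12389 TPM in K823R and 11107 to 11176 TPM in WT. Endothelial markers were higher in 6 of 6 (0.13), with sums of 81.6 to 90.6 TPM in K823R and 66.98 to 86.7 TPM in WT. Erythroid markers were lower in 5 of 5 (-0.14), with sums of 319 to 334 TPM in K823R and 245 to 492 TPM in WT. Melanocyte markers summed to 6.26 to 8.54 TPM in K823R and 6.94 to 8.89 TPM in WT, and only Tyrp1 was in the fit (-0.083). Of the other lists, the most abundant markers described here had ratios of means, K823R over WT, of 1.05 for Apoe of satellite glia, 1.13 for Cldn5 of endothelium, 0.902 for Hbb-bs of erythroid cells, 0.942 for Tyrp1 of melanocytes and 0.862 for Cd79a of lymphocytes. By limma 0 genes of the marker lists passed, and 6 had an unadjusted p under 0.05. The part of these cell types in the difference of Mcoln1 was not tested.

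**Figure D5:**
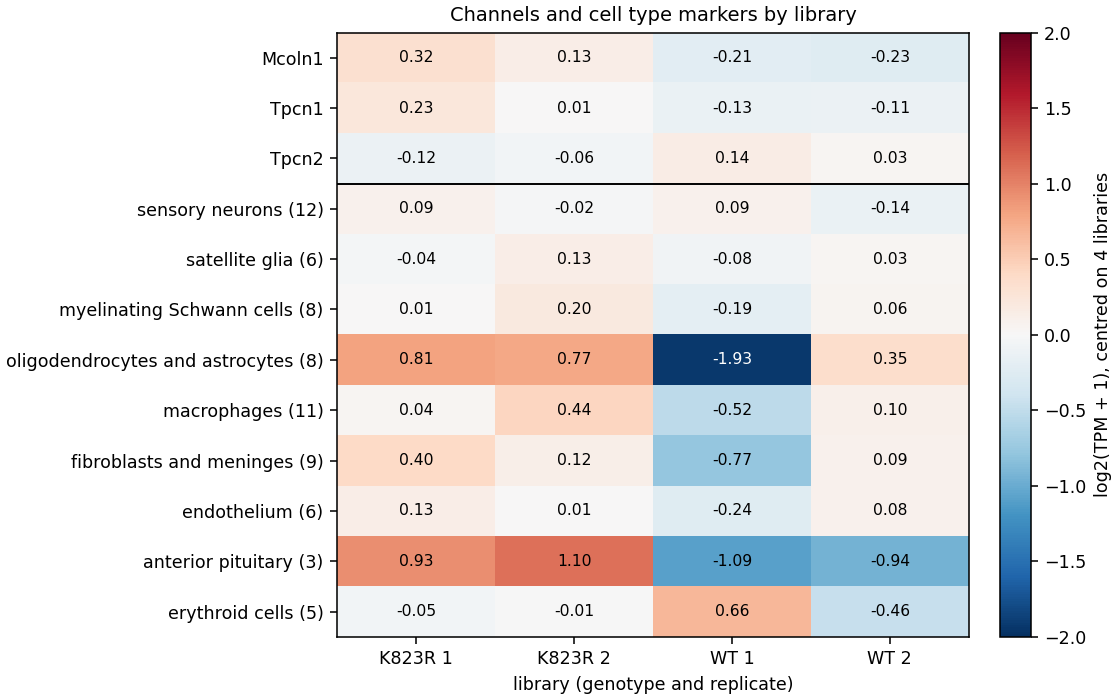
Log2(TPM + 1) of Mcoln1, Tpcn1 and Tpcn2, and the median over the markers of each cell type (number of genes in the fit in brackets), by library and centred on the mean of the 4 libraries, with K823R left of WT. WT library 1 is lowest for central glia (-1.93), macrophages (-0.52) and fibroblasts and meninges (-0.77). Anterior pituitary markers are at 0.93 and 1.10 in K823R and -1.09 and -0.94 in WT. Mcoln1 and Tpcn1 are likewise above 0 in K823R and below it in WT, which for Mcoln1 the choice of the family fixed. In 19.4% of all genes tested both K823R libraries were above both WT libraries.

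Read depth is unknown, because TPM holds no library totals, and between 21838 and 22119 genes were above 0 per library.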

How the data were processed

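Poly(A) RNA was fragmented, copied with random primers and read from both ends on Illumina instruments, per the labels' protocols. Per the submitters' processing notes the tools were fastp (0.19.5), HISAT2, RSEM and edgeR, on GRCm38.p6, with no roles named. The annotation release and strand setting were not given in those notes. The authors deposited TPM for 4 libraries, and their 2 columns of group means were not used. In TPM a rise of abundant transcripts lowers the rest of a library.

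Differences are K823R minus WT of log2(TPM + 1). Limma 3.58.1 in R 4.3.3 (variance trend, two-sided, Benjamini-Hochberg, threshold 0.05) was fitted to 15390 genes averaging at least 1 TPM. The fit was also run on simulated data, with changes far wider than the differences of the members. That run says nothing of how well differences as small as theirs are found. Members and lists were chosen with earlier results of these data known. Named genes are the 5 members, the 3 smallest p-values per pathway list, the most abundant gene of each marker list, Trpv1, TRP genes with consistent differences, and profile neighbours. Trpm8, Tfeb, Ugt8a, Gm43110 and markers at 0 were named after their values were seen. Locations come from GENCODE M21 (GRCm38), promoters from RefSeq (GRCm38.p6), and copies were searched with BLAST 2.17.0. Alternatives were the pseudocount, the filter, 3 scalings, no trend, a replicate block and leaving out each library. Count tests were not run on TPM. Protein features and a few genes that the naming rule selects are not reported here.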

Additional observations from a re-analysis of the deposited data

How the results depend on the processing

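The differences of Mcoln1, Tpcn1 and Tpcn2 kept their signs under the 3 scalings. The other alternatives (another pseudocount, filters, no variance trend, a replicate block and each library left out) could not change a sign. The groups of these genes do not overlap, and the filters, the trend and the block do not enter a gene's difference. With the minimum of 5 TPM Tpcn2 was not in the fit. Without single libraries the differences ran from 0.35 to 0.54 for Mcoln1, 0.13 to 0.35 for Tpcn1 and -0.23 to -0.12 for Tpcn2. With a pseudocount of 0.1 TPM the Tpcn2 difference was -0.26, since a smaller pseudocount widens low genes. Mcoln2 and Mcoln3 had no fitted difference. The count of genes past the threshold, 1 in the fit reported, was 0 with no filter, 0 with no variance trend, 0 with the replicate block and 2 with the minimum raised to 5 TPM, and it ran from 0 to 0 when single libraries were left out. The cause was not tested. Medians without single libraries ran from -0.0095 to 0.10 for other lysosomal channels and transporters, 0.048 to 0.20 for PI(3,5)P2 enzymes and 0.0040 to 0.063 for NAADP and partners. They ran from -0.053 to 0.020 for TFEB and mTORC1, 0.027 to 0.21 for lysosomal enzymes, -0.039 to 0.086 for the V-ATPase and -0.042 to 0.22 for other TRP channels. Replicate numbers are shared between the groups, but same-numbered libraries correlated in their deviations at 0.05 across 15390 genes, so the numbers are not taken to pair them. The replicate block left every difference at its value.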
